A study of Mus musculus with 6 samples.

Results

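The genes described are the 3 ligands of the transforming growth factor beta (TGF-beta) family proper, Tgfb1, Tgfb2 and Tgfb3, their receptors Tgfbr1, Tgfbr2 and Tgfbr3, the signal transducers Smad2, Smad3 and Smad7, and the matrix gene Tgfbi. Every probe set whose platform annotation gave 1 of these symbols was taken, which gave 12 of the 12422 probe sets on the array and 10 of its 8251 named genes. The genes themselves were chosen from the mutant against wild-type differences of these same arrays, already known when the set was drawn up. Their differences are therefore given as a description, without p-values, and support nothing on their own.

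RNA of whole kidneys (the metanephros) from E14.5 mouse embryos was hybridised to 6 one-colour Affymetrix MG_U74Av2 arrays. The Wnt4 mutant group had 2 arrays, each from a pool of 8 to 10 kidneys of 4 to 5 embryos carrying the Wnt4tm1Amc allele, with the strain labelled 129. The wild-type group had 4 arrays, each from a pool of 2 kidneys, with the strain labelled CD-1, although the protocol text of every sample speaks of CD-1 matings. Neither the zygosity of the mutants nor the number of embryos in a wild-type pool is given in the sources used here. Genotype, strain label and pool size cannot be told apart. The comparison addresses which genes are expressed in the renal vesicle, the first epithelial stage of the nephron, and in the structures that grow from it, since these do not form without Wnt4.

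TGF-beta ligands are secreted as latent dimers, bound to their own propeptide and to matrix, and must be released before they can act. The free ligand assembles a complex of the type II receptor Tgfbr2 and the type I receptor Tgfbr1, which phosphorylates Smad2 and Smad3, and these enter the nucleus with Smad4. In the developing kidney the pathway is known for its effects on ureteric branching and on the mesenchyme, and in the adult kidney for its part in fibrosis.

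Wnt4, the mutated gene, read 74.2 and 34.5 on the mutant arrays against 829, 739, 946 and 699 in the wild type (log2 difference -3.59 ± 0.24 (SE), limma adjusted p = 6.11e-05), the lower group being the one labelled mutant. No source used here states whether its probes lie in the deleted part. The values are signals on a linear scale that the authors had already scaled to a common level on each array, with array medians between 172.7 and 191.04. Differences are mutant minus wild type in log2(signal + 16), with the standard error (SE) from a limma fit over 7981 probe sets. A probe set entered the fit when its signal exceeded the 40th percentile of its array (101.12 to 110.4) on at least 2 arrays, and it was called at a Benjamini-Hochberg adjusted p under 0.05. Six2 of the nephron progenitors (2643 and 2457 in the mutant, 2584 to 2925 in the wild type), Foxd1 of the stroma (4692 and 4749, against 1199 to 1528) and Hoxb7 of the ureteric bud (547 and 392, against 232 to 460) gave signal in both groups. These 3 markers were named after their values had been seen. Six2 does not stand for its list: the progenitor markers Cited1, Uncx and Meox2 were called lower, at -0.76, -1.33 and -0.94 (limma adjusted p = 0.00818, 1.42e-04 and 0.0191). Eya1 and Meox1 were not called, at 0.27 and 0.07 (limma adjusted p = 0.520 and 0.867). In whole tissue, fewer cells of a type and less RNA per cell cannot be told apart.

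Of the 12 probe sets, 9 passed the filter and covered 9 of the 10 genes. In the fit 1 of these 9 was called lower in the mutant (Tgfb1) and 3 were called higher (Tgfb2, Tgfb3 and Tgfbi), and 5 were not called. Over all tested probe sets 6.11% were called lower and 4.65% higher, and since the set was drawn up on this contrast nothing is read from the comparison. These array-wide counts rest on both mutant arrays: 488 lower and 371 higher became 198 and 133 without mutant replicate 1 and 188 and 114 without mutant replicate 2, and the lower count was 320 without wild-type replicate 1. The mutant pair fell outside the wild-type range on its lower side for 3 of the 9 (Tgfb1, Smad2 and Smad7) and on its upper side for 3 (Tgfb2, Tgfb3 and Tgfbi), while 18.8% and 18.6% of all tested probe sets did so.

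**Figure D1:**
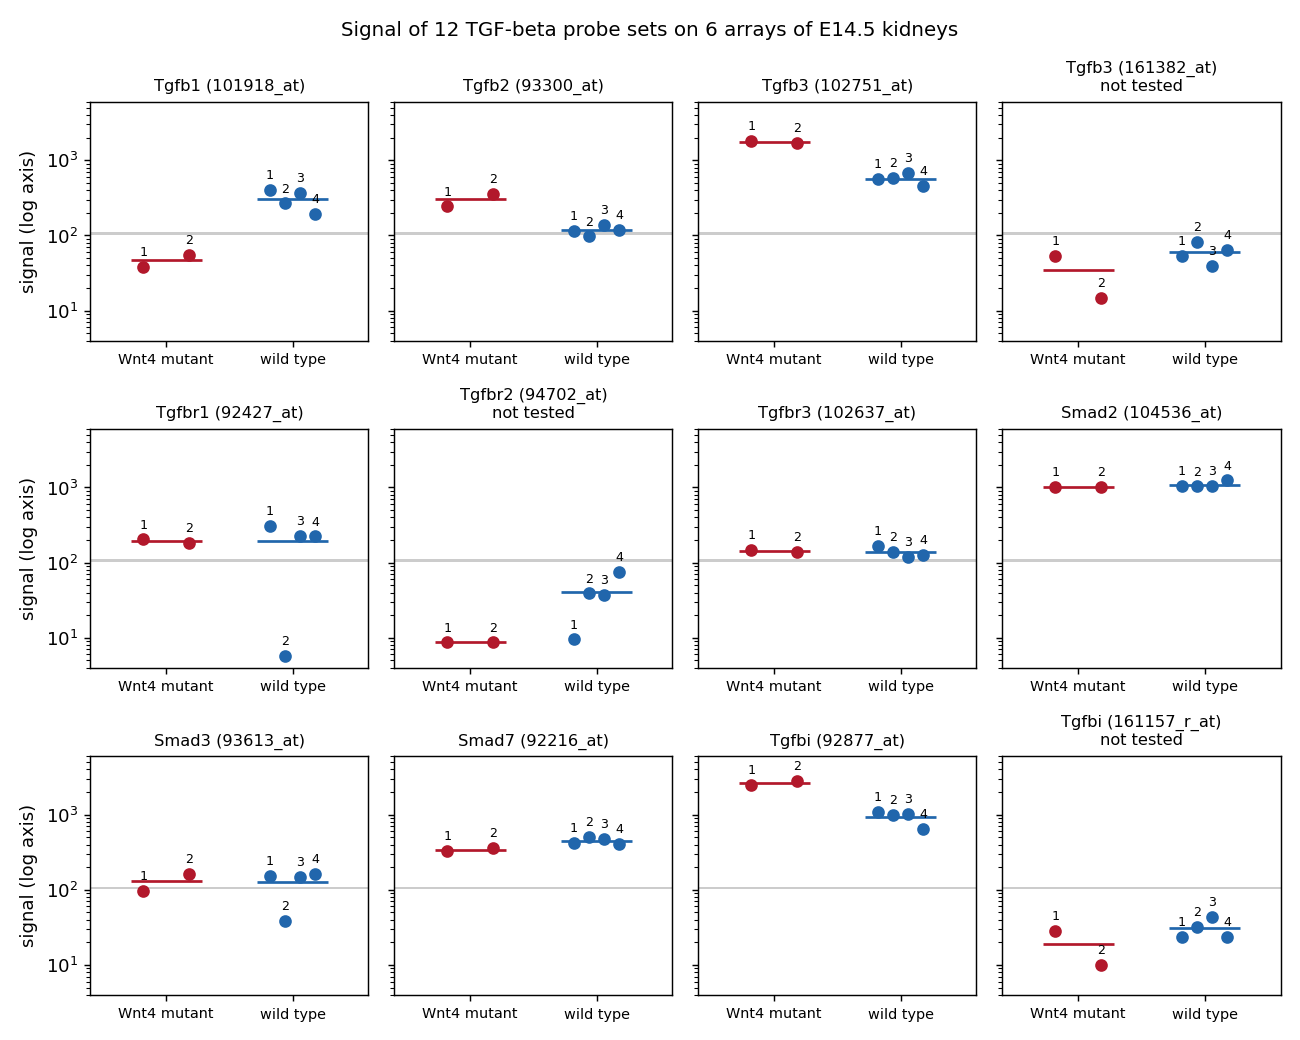
Signal (log axis, arbitrary units) of each of the 12 probe sets on the 2 Wnt4 mutant arrays (red, left) and the 4 wild-type arrays (blue, right). Points are arrays numbered by replicate, short lines are group means, and the grey band spans the 40th percentiles of the arrays (101.12 to 110.4). Tgfb1 lies lower in the mutant, and Tgfb2, Tgfb3 and the first Tgfbi probe set lie higher.

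The ligands did not move together. Tgfb1 (probe set 101918_at), the isoform best known from immune control and fibrosis, read 38.5 and 55.8 on the mutant arrays and 403, 267, 366 and 196 on the wild-type arrays. Every mutant value lay below every wild-type value, and the wild-type arrays themselves spread over a wide range. The means were 47.2 ± 12.2 in the mutant (SD, n = 2) and 308 ± 94.0 in the wild type (SD, n = 4), a log2 difference of -2.32 ± 0.31 (SE). Both mutant values were below the 40th percentile of their arrays, so the size depends on the offset: it was -2.65 with an offset of 1 and -1.71 with an offset of 64.

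Tgfb2 (93300_at), a ligand whose loss in mice is known to disturb the development of many organs, the urogenital tract among them, read 243 and 361 in the mutant and 116, 97.0, 137 and 118 in the wild type. The groups did not overlap, and the wild-type values lay around the 40th percentile, which 3 of the 4 exceeded. The log2 difference was 1.24 ± 0.25 (SE), with means of 302 ± 83.3 in the mutant (SD, n = 2) and 117 ± 16.4 in the wild type (SD, n = 4). It rests partly on mutant replicate 2: without that array it was 0.97 and no longer called.

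Tgfb3 (102751_at), known for its part in palate fusion and lung development, read 1802 and 1722 in the mutant and 559, 582, 684 and 459 in the wild type. The mutant arrays stood close together and well above the wild-type range, with means of 1762 ± 56.3 (SD, n = 2) against 571 ± 92.5 (SD, n = 4) and a log2 difference of 1.61 ± 0.15 (SE), 3.06-fold on that scale. A second Tgfb3 probe set, 161382_at, was below the 40th percentile on every array and was not tested. It read 53.8 and 14.6 in the mutant and 39.7 to 81.3 in the wild type, so the groups overlapped, with a difference of -0.68. The rise therefore rests on 1 of the 2 Tgfb3 probe sets.

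Tgfb1 on one side and Tgfb2 and Tgfb3 on the other thus differed from the wild type in opposite directions, at -2.32, 1.24 and 1.61. The contrast between them was part of the reason for choosing these genes and was not tested. Probe sets differ in brightness for reasons other than transcript number, so the levels of the ligands cannot be ranked against each other.

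To show what lies upstream of these ligands, promoter windows from RefSeq (GRCm38.p6; 250 bases before to 50 after the annotated start) were read for the members that the table holds, 6 of 10. Those of Tgfb1, which was lower, and of Tgfb2 and Tgfbi, which were higher, are printed, 5′ to 3′ on the gene's strand, with the letters of the motifs searched in capitals. The motifs were the TATA box TATAAA, the GC box GGGCGG, the E-box CACGTG, the Smad half-element CAGAC, the AP-1 element TGANTCA and the half-site TGACG of the cyclic AMP response element (CRE), all on both strands. They were picked after the sequences had been seen, and no matches overlapped in the printed windows.
Tgfb1, chr7:25686752-25687051, plus strand: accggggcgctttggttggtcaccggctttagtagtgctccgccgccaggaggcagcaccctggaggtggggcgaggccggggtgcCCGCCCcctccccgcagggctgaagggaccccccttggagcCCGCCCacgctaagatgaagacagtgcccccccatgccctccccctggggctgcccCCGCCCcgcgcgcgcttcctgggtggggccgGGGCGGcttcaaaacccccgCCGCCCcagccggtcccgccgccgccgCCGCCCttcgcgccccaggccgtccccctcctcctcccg
Tgfb2, chr1:186705940-186706239, minus strand: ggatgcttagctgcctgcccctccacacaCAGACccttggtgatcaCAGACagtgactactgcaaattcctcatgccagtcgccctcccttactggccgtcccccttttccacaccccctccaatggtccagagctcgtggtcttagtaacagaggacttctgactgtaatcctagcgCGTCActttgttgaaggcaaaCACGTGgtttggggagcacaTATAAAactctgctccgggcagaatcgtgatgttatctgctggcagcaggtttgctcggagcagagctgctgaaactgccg
Tgfbi, chr13:56609336-56609635, plus strand: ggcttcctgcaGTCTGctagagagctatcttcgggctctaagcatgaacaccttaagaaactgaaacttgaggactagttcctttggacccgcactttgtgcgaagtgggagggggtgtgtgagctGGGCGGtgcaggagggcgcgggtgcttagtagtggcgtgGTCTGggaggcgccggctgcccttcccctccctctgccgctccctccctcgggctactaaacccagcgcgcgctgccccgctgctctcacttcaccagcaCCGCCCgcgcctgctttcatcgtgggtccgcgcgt

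The windows of Tgfb1 and Tgfb2 shared none of the motifs searched. The Tgfb1 window held 6 GC boxes and no TATA box, E-box, Smad half-element, AP-1 element or CRE half-site. The Tgfb2 window held a TATA box at -31 to -26 from the start, an E-box at -51 to -46, a CRE half-site at -72 to -68 and 2 Smad half-elements, and no GC box. The Tgfbi window held 2 GC boxes and 2 Smad half-elements. Among all 32851 windows of the same length 35.7% held a GC box, 13.6% the TATA box, 7.15% the E-box, 20.8% the CRE half-site, 49.6% the Smad half-element and 7.81% the AP-1 element. These matches describe letters only and say nothing of binding.

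The receptors gave no called difference, and 2 of their 3 probe sets could not show one clearly. Tgfbr1 (92427_at), the type I kinase that phosphorylates Smad2 and Smad3, read 204 and 182 in the mutant and 310, 5.77, 226 and 223 in the wild type. Wild-type replicate 2 stood far below the other 5 arrays, and it set the sign: the difference was 0.55 ± 0.94 (SE) with that array and -0.35 without it. Without it, both mutant arrays lay below the other wild-type arrays, and the gene was still not called.

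Tgfbr2 (94702_at), the type II receptor that binds the ligand first, stayed below the 40th percentile on all 6 arrays and was not tested. It read 8.67 and 8.66 in the mutant and 9.50, 39.0, 37.1 and 75.2 in the wild type. The mutant values lay under all 4 wild-type values, at levels too low to be read as a difference. Tgfbr3 (102637_at), also called betaglycan, a co-receptor that presents Tgfb2 to the signalling receptors, read 146 and 138 in the mutant and 167, 138, 120 and 128 in the wild type. Its groups overlapped, with a difference of 0.04 ± 0.25 (SE).

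None of the 3 Smads was called. Smad2 (104536_at), a receptor-activated transducer, read 1013 and 1024 in the mutant and 1060, 1035, 1036 and 1244 in the wild type. The mutant arrays lay just under the wild-type range, and the difference of -0.10 ± 0.11 (SE) was no larger than its error.

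Smad3 (93613_at), the other receptor-activated transducer, read 97.5 and 164 in the mutant and 153, 38.4, 148 and 162 in the wild type. The groups overlapped, and the difference of 0.16 ± 0.51 (SE) turned to -0.25 without wild-type replicate 2 and to -0.18 without mutant replicate 2. Wild-type replicate 2 was the low array here as it was for Tgfbr1.

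Smad7 (92216_at), the inhibitory Smad that TGF-beta itself induces and that blocks Tgfbr1, read 329 and 358 in the mutant and 419, 502, 477 and 409 in the wild type. Neither mutant value reached the lowest wild-type one, with means of 344 ± 20.4 (SD, n = 2) against 452 ± 44.8 (SD, n = 4). The difference was -0.37 ± 0.14 (SE) and was not called; over the alternatives it ran from -0.43 to -0.32 and was called in none.

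Tgfbi (92877_at) encodes a secreted matrix protein that was first found as a transcript induced by TGF-beta and that binds collagens and integrins. It read 2466 and 2798 in the mutant and 1082, 998, 1035 and 651 in the wild type. The mutant arrays lay above the whole wild-type range, with means of 2632 ± 235 (SD, n = 2) against 941 ± 196 (SD, n = 4) and a log2 difference of 1.49 ± 0.19 (SE), 2.81-fold on that scale. Its second probe set, 161157_r_at, was below the 40th percentile on all arrays and was not tested: it read 28.5 and 10.0 in the mutant and 23.4 to 43.2 in the wild type, a difference of -0.44. The call therefore rests on 1 of the 2 Tgfbi probe sets.

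**Figure D2:**
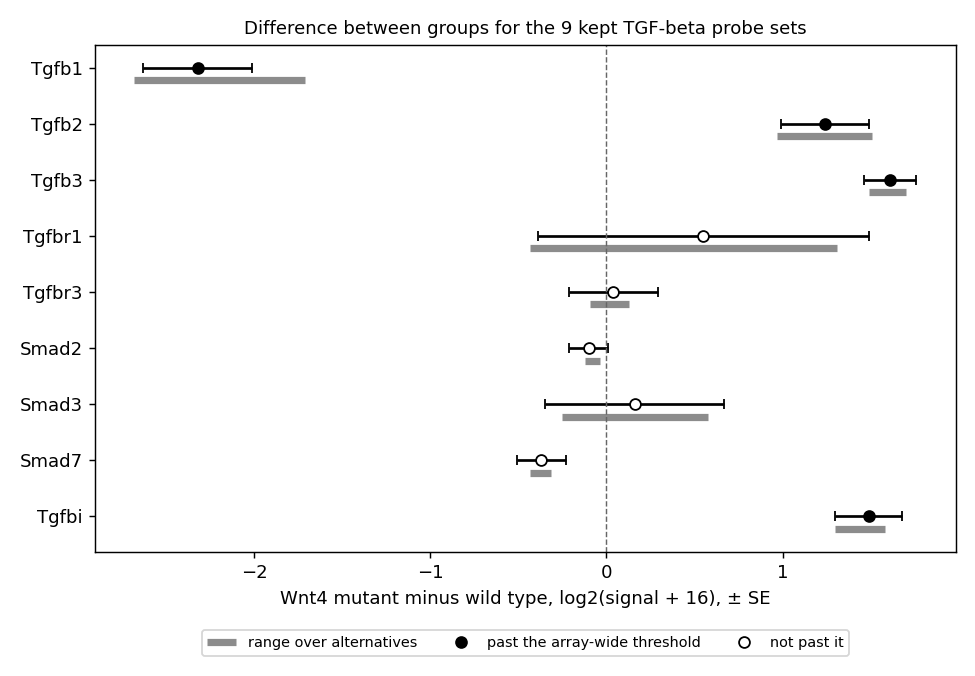
Log2 difference, Wnt4 mutant minus wild type, of the 9 tested probe sets (points; bars are ± SE of the fit; filled points were called). Grey bars span the differences under all alternative settings, leave-one-out fits included: those of Tgfb1 (-2.68 to -1.71), Tgfb2, Tgfb3 and Tgfbi keep to one side of 0, and those of Tgfbr1, Tgfbr3 and Smad3 cross it.

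For the members that moved most, the 3 genes with the most similar array profile were looked up among 6082 genes. Likeness was the root mean square difference between mean-centred log2 values over the 6 arrays. For Tgfb1 these were Serpinf2 (0.154), Clrn3 (0.239) and Car4 (0.266), which like Tgfb1 were low on both mutant arrays. All 3 stayed below the 40th percentile there and passed the filter only through the wild-type arrays. For Tgfb2 the nearest were Abca1 (0.129), Nfib (0.13) and Nr2f1 (0.149). Tgfb3 lay nearest to Ddit4 (0.105), Phlda1 (0.108) and Matn2 (0.118), and Tgfbi to Asb3 (0.0984), Rbbp9 (0.128) and Matn2 again (0.138). Asb3 read only 30.1 to 51.4 in the wild type and passed the filter only through the mutant arrays. It was not called (limma adjusted p = 0.0731). Matn2, which encodes a matrix protein of the matrilin family, read 1109 and 1083 in the mutant and 304 to 423 in the wild type. With 6 arrays in 2 groups, the profiles are set mainly by the group difference.

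**Figure D3:**
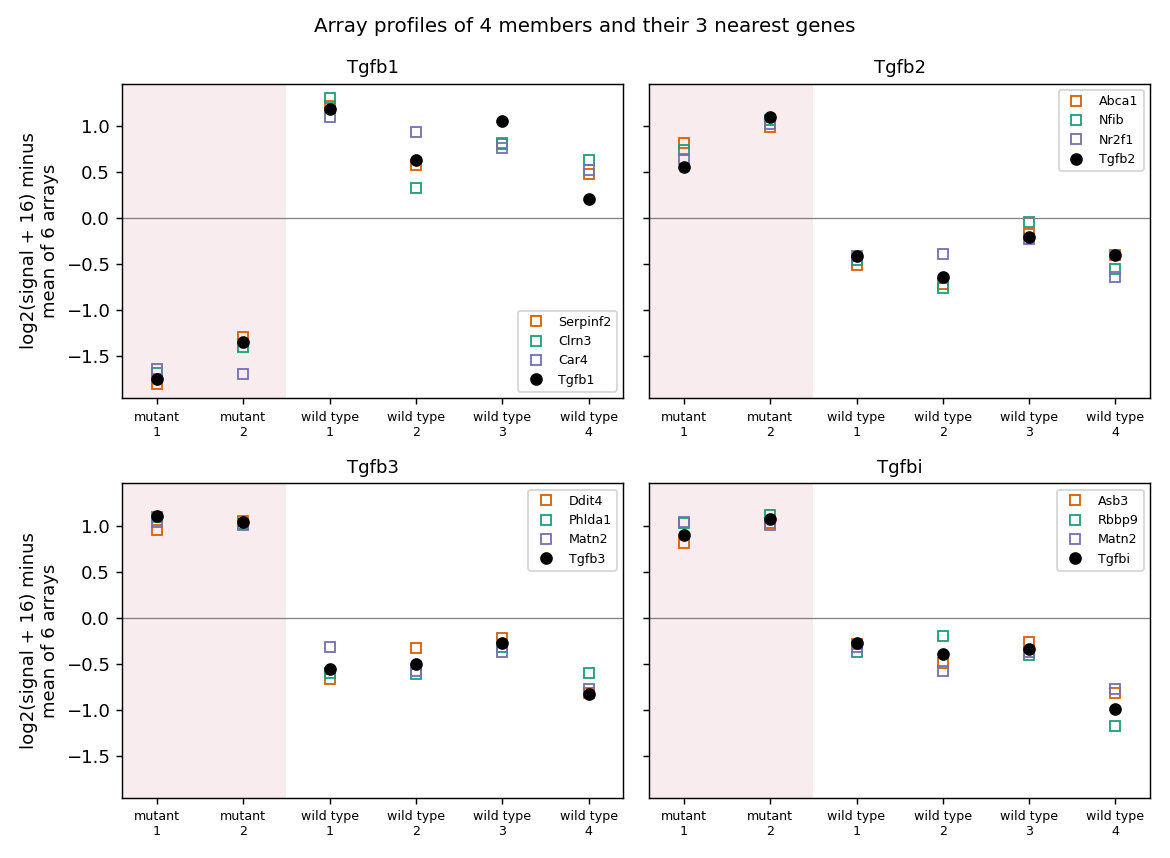
Log2(signal + 16) minus the mean of the 6 arrays, for Tgfb1, Tgfb2, Tgfb3 and Tgfbi (black) and the 3 genes with the nearest profile (open squares), with the 2 Wnt4 mutant arrays at the left (shaded) and the 4 wild-type arrays at the right. Tgfb1 and its neighbours are low on both mutant arrays, and the other panels show the opposite.

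Other genes of TGF-beta signalling were counted from 6 lists with 116 genes, of which 76 were tested. Of these, 9 rose in the mutant, 3 fell and 64 did not pass, that is 11.8% higher and 3.95% lower beside 4.65% and 6.11% over all probe sets. Their median difference was 0.16 (0.02 over all tested probe sets). No test of a list as a whole was made, and the counts depend on the mutant arrays: 4 rose and 1 fell without mutant replicate 1, and 5 rose and 2 fell without mutant replicate 2. The lists were chosen with earlier results of these data known. Each gene also counts at its brightest tested probe set, while the shares over all probe sets include dim and repeated ones. The counts and p-values of the lists are therefore a description, and nothing is read from the comparison of shares.

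Of 26 listed genes of the latent complex and its activation, 15 were tested. Of these 4 rose, 0 fell and 11 did not pass (limma; at an unadjusted p under 0.05, 6 were higher and 1 lower), beside 4.65% and 6.11% of all probe sets higher and lower, and the list median was 0.30 (0.15 without wild-type replicate 4). Thbs3, a thrombospondin, read 824 and 523 in the mutant and 152 to 312 in the wild type (1.46 ± 0.28, adjusted p = 0.0114). Whether Thbs3 takes part in the release of latent TGF-beta was not tested, and Thbs1 of the same list had no probe set. Fbn2, a fibrillin of the microfibrils that hold latent TGF-beta, rose by 0.89 ± 0.14 (adjusted p = 0.00396), and Ltbp4, a latent TGF-beta binding protein, by 0.66 ± 0.12 (adjusted p = 0.0110). Bmp1, a protease of matrix and latent complexes, rose by 0.52 ± 0.10 (adjusted p = 0.0149) at the probe set with the higher mean, while its other had 0.19 (adjusted p = 0.585). Without mutant replicate 1 only 1 of the 4 was still called, and without mutant replicate 2 there were 2. Itgb1 and Itgav, subunits of integrins that can release latent TGF-beta, had 0.17 (adjusted p = 0.256) and 0.40 (adjusted p = 0.0572). Further Itgav probe sets went the other way, at -1.44 and -0.39 (adjusted p = 0.269 and 0.677). The plasminogen activator Plat had -0.33 (adjusted p = 0.0779), with both mutant values under the wild-type range. Itga8, another integrin subunit, named after its value had been seen, had -0.56 (adjusted p = 0.621).

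Among 8 tested ligand traps and surface modulators, 1 rose, 1 fell and 6 did not pass (median -0.07). Over all tested probe sets 4.65% were called higher and 6.11% lower. Dcn, the proteoglycan decorin, which binds TGF-beta in the matrix, read 3765 and 3861 in the mutant and 2227 to 2594 in the wild type (0.71 ± 0.09, adjusted p = 0.00162). Eng, the co-receptor endoglin of endothelial cells, fell to 1546 and 1704 in the mutant against 2335 to 2614 in the wild type (-0.58 ± 0.09, adjusted p = 0.00431), and it was not called without mutant replicate 1. Of the other 8 endothelial markers, counted without Eng after the data had been seen, 2 fell (Emcn and Icam2), 0 rose and 6 did not pass in limma. Among those that did not pass, the vascular cadherin Cdh5 had -0.10 and the receptors Kdr, Tek and Tie1 had 0.12, -0.07 and -0.14 (adjusted p = 0.615, 0.711, 0.815 and 0.559, in this order). Pecam1 and Flt1, which also did not pass, lay lower, at -1.11 and -0.65 (limma adjusted p = 0.0976 and 0.209). Both mutant values of Pecam1 were under the wild-type range, and those of Flt1 overlapped it. The summed signal of the 8 was 3420 and 3522 in the mutant against 4297 to 4606 in the wild type. The part of this in the value for Eng was not tested. Bgn, the related proteoglycan biglycan, had -0.13 (adjusted p = 0.345), the receptor-binding immunophilin Fkbp1a 0.00 (adjusted p = 0.981) and the endocytic adaptor Dab2 -0.21 (adjusted p = 0.509).

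Among the other Smads, their partners and the other receptors of the superfamily, only Tgif1 passed the test. Over all tested probe sets 4.65% were called higher and 6.11% lower, and nothing is read from counts this small. Of 12 tested Smads and partners, 1 rose, 0 fell and 11 did not pass (limma; 2 higher and 0 lower at an unadjusted p under 0.05; median 0.18). The corepressor Tgif1 rose by 0.36 ± 0.10 (adjusted p = 0.0470), close to the threshold. This call was lost in 9 of 17 alternatives, among them those without mutant replicate 1 or 2 or wild-type replicate 1, 2 or 3, with no filter, with median centring and without the variance trend. With no filter, median centring or no variance trend the list had 0 rises. The corepressor Ski had 0.30 (adjusted p = 0.0771), the common Smad4 -0.11 (adjusted p = 0.468) and the spectrin and Smad adaptor Sptbn1 0.13 (adjusted p = 0.419). None of the 6 tested activin and BMP receptors passed in limma (1 higher and 0 lower at an unadjusted p under 0.05), and their values all lay above 0 with a median of 0.29. Acvr2b, Acvr2a and Bmpr1a had 0.09, 0.34 and 0.45 (adjusted p = 0.689, 0.184 and 0.234).

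Of 15 listed activin, nodal and GDF ligands 13 had a probe set, and only 6 passed the filter. None of these was called in limma, beside 4.65% higher and 6.11% lower over all probe sets (3 higher and 0 lower at an unadjusted p under 0.05). Under 6 alternatives 1 or 2 were called, among them 1 without wild-type replicate 4 and 2 without the variance trend. Under the other 11 the count stayed at 0. All 6 values lay above 0, with a median of 0.74 (0.15 without mutant replicate 1 and 0.29 without mutant replicate 2). The largest values were those of Inha and Inhba, subunits of inhibin and activin, and of Gdf10, all named after their values had been seen. They had 1.72, 1.47 and 0.85 (adjusted p = 0.0533, 0.188 and 0.150). Inha read 196 and 161 in the mutant and 27.1 to 87.8 in the wild type. None of the 3 exceeded the 40th percentile on any wild-type array, so they passed the filter only through the mutant arrays, and the median supports nothing. Inhbc, Lefty1 and Gdf9 had 0.10, 0.22 and 0.63 (adjusted p = 0.834, 0.744 and 0.323).

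Of 29 tested genes known to respond to TGF-beta in other cells, 3 rose, 2 fell and 24 were not called, beside 4.65% higher and 6.11% lower over all probe sets, and the median was 0.05. Postn, a matrix protein related to Tgfbi, rose by 1.11 ± 0.09 (3704 and 3939 in the mutant, 1676 to 1843 in the wild type; adjusted p = 1.42e-04). The small GTPase Rhob rose by 0.78 ± 0.17 (adjusted p = 0.0191) and the transcription factor Zeb1 by 0.75 ± 0.11 (adjusted p = 0.00258), at 1 of its 2 probe sets, the other being too low to test. Tagln, a smooth muscle gene, fell by 1.32 on the log2 scale, to 228 and 242 in the mutant against 546 to 677 in the wild type (adjusted p = 6.61e-04). Id1, an inhibitor of helix-loop-helix factors that BMPs induce, fell by 0.68 (adjusted p = 0.0110). Rhob and Id1 were not called when either mutant array was left out, which left 2 rises and 1 fall in each case, and without wild-type replicate 4 there were 3 falls. For the type I collagen chains the differences were 0.34 for Col1a1 (adjusted p = 0.320) and 0.18 for Col1a2 (adjusted p = 0.226). Col3a1, named after its values had been seen, was counted as not called at the probe set with the highest mean (0.41, adjusted p = 0.0703), but its other probe sets had 0.95 (adjusted p = 0.00751) and 0.72 (adjusted p = 0.0863). With probe sets averaged per gene the list had 4 rises and 3 falls. Tsc22d1, first found as a TGF-beta induced gene, had -0.41 (adjusted p = 0.0583) and was called at -0.49 without wild-type replicate 4.

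**Figure D4:**
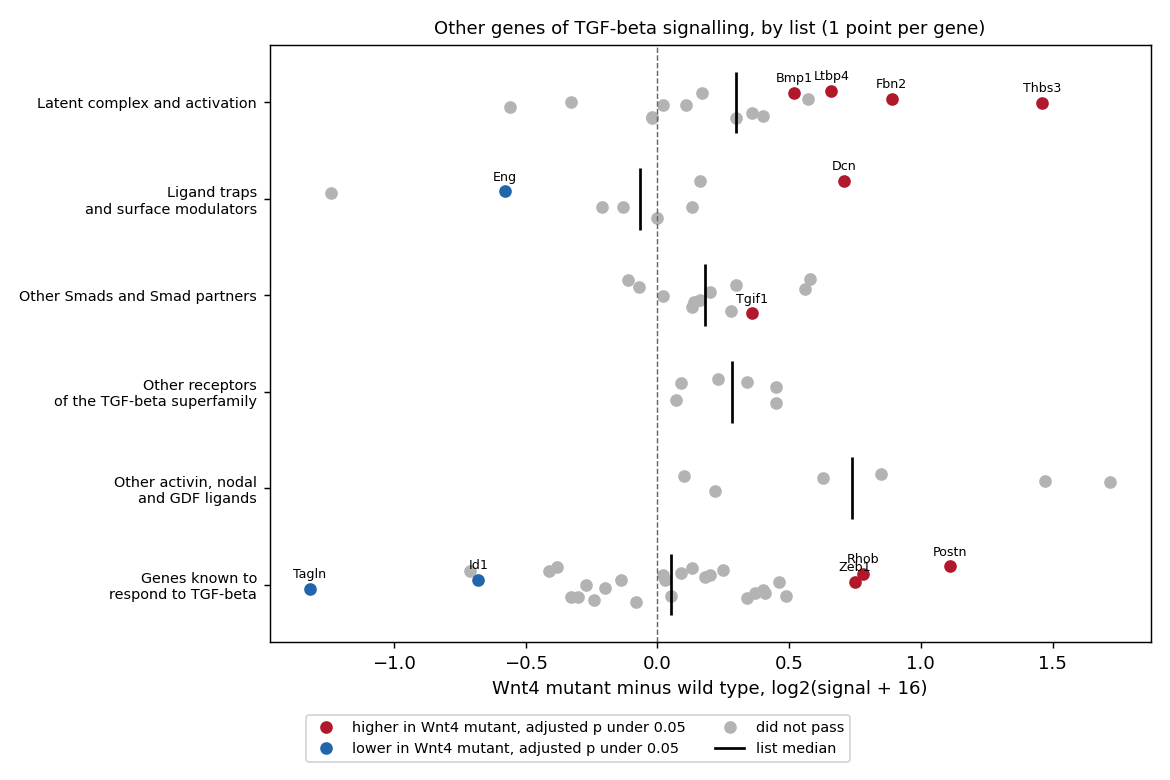
Log2 difference, Wnt4 mutant minus wild type, of the tested genes in 6 lists (1 point per gene; black lines are list medians). Red points rose, blue points fell and grey points did not pass; the latent complex list has 4 red points and no blue one, and the responsive genes lie on both sides of 0.

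Markers of several cell types moved along with these genes. The marker lists, too, were chosen with earlier results of these data known, so their counts are a description. Over all tested probe sets 4.65% were called higher and 6.11% lower. Of 11 tested nephron epithelium markers 8 fell and 0 rose (limma; 10 lower and 0 higher at an unadjusted p under 0.05). Their summed signal was 3098 and 3132 in the mutant against 6390 to 8223 in the wild type. Most of the mutant sum came from Cdh16, which read 2296 and 2387 in the mutant and 2552 to 3007 in the wild type. It differed by only -0.23 (limma adjusted p = 0.143), while the median difference of the list was -2.23. Fgf8, Dll1, Hnf4a, Cubn, Slc34a1 and Slc12a1 of this list exceeded the 40th percentile on 0 mutant arrays. They passed the filter only through the wild-type arrays, so the count and the median support nothing on their own. Of 9 stroma markers 7 rose and 0 fell in limma (7 higher and 1 lower at an unadjusted p under 0.05). Their sums were 22083 and 22127 in the mutant against 10321 to 11282 in the wild type. Pdgfrb went the other way (-0.68, limma adjusted p = 0.0713), with both mutant values under the wild-type range. Skeletal muscle markers rose in 6 of 10, with sums of 5432 and 5712 in the mutant against 1314 to 2009 in the wild type. Tnnc1, among those that rose, passed the filter only through the mutant arrays. The macrophage marker C1qb was the only 1 of 7 to rise, with sums of 2079 and 2208 against 1253 to 1482. Erythroid markers rose in 3 of 5 in limma (3 higher and 1 lower at an unadjusted p under 0.05). Their sums were 17329 and 18893 in the mutant against 4974 to 7460 in the wild type. All 3 that rose were globin genes, and Hbb-y, at 12187 and 13314, made up most of the mutant sum. Hbb-bh1, another of the 3, passed the filter only through the mutant arrays. Alas2 went the other way (-0.46, limma adjusted p = 0.0643), with both mutant values under the wild-type range. Klf1 had 0.31 (limma adjusted p = 0.779). The erythroid sums therefore follow the globin genes and not the list as a whole. Of 3 podocyte markers 1 fell (859 and 1040 against 1312 to 1833). The marker that fell was Ptpro, which passed the filter only through the wild-type arrays. Nephron progenitor markers fell in 3 of 6, with sums of 5340 and 5551 in the mutant against 7540 to 8402 in the wild type. Of 7 ureteric bud markers 2 rose and 1 fell (6604 and 6707 against 5576 to 6200). The 2 that rose were the keratins Krt8 and Krt18, the brightest of the list in the mutant. Calb1 fell (-0.61, limma adjusted p = 0.00539), and Wnt11 had -0.05 (limma adjusted p = 0.937). No tested marker was listed at 0, and none of the 3 platelet markers on the array passed the filter. Sums of nephron epithelium, podocyte, nephron progenitor and endothelial markers were all lower in the mutant, like Tgfb1. Those of stroma, skeletal muscle, macrophage, erythroid and ureteric bud markers were all higher, like Tgfb2, Tgfb3, Tgfbi, Dcn and Postn. Direction alone therefore does not single out a cell type. The part of these cell types in the values of the TGF-beta genes was not tested.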

How the data were processed

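The authors deposited linear probe set intensities, made with GCOS (Affymetrix) according to the submitters' processing notes, without a stated version or settings. In each column the mean without the lowest and highest 2% was 500.27 to 500.29. No further normalization was applied. After 66 control probe sets were set aside, 10833 of 12422 had 1 gene symbol, updated by gene identifier to RefSeq (GRCm38.p6), 396 had several and 1193 were unnamed here. Intensities were analysed as log2(signal + 16), which understates changes of dim genes. The test was limma 3.58.1 (R 4.3.3; lmFit, eBayes with a variance trend, no covariate) on 2 Wnt4 mutant and 4 wild-type arrays, adjusted by Benjamini-Hochberg over 7981 probe sets above the 40th percentile on at least 2 arrays; 4441 were dropped. The code was tested on simulated data. A gene in a list is represented by its brightest tested probe set.

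The members, gene lists and marker lists were chosen with earlier results of these data known. Named were all members, from each pathway list up to 8 called genes and the 3 brightest others, and 3 nearest profiles for each of 4 members. Arrays are limited in precision by their number; p-values measure the spread between pools. Alternatives were other offsets, filters, normalizations, a variance prior without trend, array weights, the replicate number as a block, probe sets averaged per gene, and arrays left out. Promoter sequences are from RefSeq.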

Additional observations from a re-analysis of the deposited data

Results flagged for a closer look

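Wild-type arrays were searched for one that stood apart from the other wild-type arrays, by the gap to its nearest neighbour over the range of the group on the log2 scale (Dixon's test, beyond its 95% limit). Of 42 probe sets of members and named pathway genes, 6 had such an array, where chance gives about 1 in 20. Wild-type replicate 2 was low for Tgfbr1 (5.77, gap 0.885 of the range), for Smad3 (38.4, 0.930) and for Zeb1 (640, 0.919). Wild-type replicate 4 was high for Smad2 (1244, 0.871) and low for Tgfbi (651, 0.840), and replicate 1 was high for Dcn (2594, 0.888).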

How the results depend on the processing

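Tgfb1, Tgfb3 and Tgfbi kept their direction and their call under all 16 alternatives (-2.68 to -1.71, 1.49 to 1.70 and 1.30 to 1.58), and Tgfb2 under 14 of 15, the exception being 0.97 without mutant replicate 2 (leave-one-out range 0.97 to 1.51). Tgfb2 could not be fitted with a filter at the 60th percentile, nor could Tgfbr1, Tgfbr3 and Smad3. Smad2 and Smad7 kept their direction and were called in none. Signs changed for uncalled members: Tgfbr1 was -0.43 without wild-type replicates 2 and 4 (leave-one-out -0.35 to 0.95), Smad3 was -0.22 in the same fit (-0.25 to 0.49), and Tgfbr3 was -0.0046 with quantile normalization and -0.093 with a replicate block (-0.018 to 0.13). Array weights raised the array-wide counts to 738 lower and 613 higher and the higher pathway genes to 15; leave-one-out counts ran from 188 to 553, from 114 to 448 and from 4 to 11, and the lower pathway genes from 1 to 4. Of 524 values for 31 other named genes, 481 kept direction and side of the threshold, 22 lost the call, 11 gained it and 10 changed sign. The last were Itgav (-0.475 with the mean of its probe sets, whose other probe sets were negative), Fkbp1a (0.019 with quantile normalization and 0.052 with a replicate block; leave-one-out -0.031 to 0.026), Inhbc (-0.13 with a replicate block; -0.065 to 0.27) and Lefty1 (-0.19 without wild-type replicates 2 and 4; -0.0030 to 0.39). The cause of the other changes was not tested. Same-numbered arrays did not deviate together (correlations of deviations 0.003 and -0.015). The deviations of the 2 mutant arrays mirror each other, so these values cannot settle whether the replicate number pairs the samples. With the replicate number as a block 362 were lower and 341 higher, Tgif1 and Bmp1 were not called, and Tsc22d1 was. Mutant values of Tgfb1 and all values of Tgfbr2 lay below the 40th percentile, which limits the size of any difference there.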
